A study of Mus musculus with 5 samples.

Results

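The interferon regulatory factor (IRF) family was followed in CD4+ T cells of mice, 3 samples activated in the animal against a tumor and 2 naive samples. Its members were chosen by gene symbol: every probe set that the platform annotation gives to Irf1, Irf2, Irf3, Irf4, Irf5, Irf7, Irf8 or Irf9 was taken, which gave 8 of 18193 genes and 14 of 45101 probe sets. Activated cells came from draining axillary lymph nodes, pooled within each experiment, on day 8 after 100000 MOPC315 cells, a plasma cell tumor line, were placed under the skin of the flank in 250 µl of Matrigel. The injected animals numbered 12 to 15, and the cells were sorted as CD4+ and GB113+ to a purity of at least 95%. Naive cells were taken from the pooled nodes of naive mice and, per the design text, were treated identically. All 5 samples shared the other conditions: mice with a transgenic T cell receptor for the tumor on a SCID, Balb/c background, adult at 7 to 12 weeks of age. SCID mice lack other T cells and B cells, so the hosts differ from animals with a full lymphocyte compartment. The protocol fields of the naive samples repeat the tumor challenge, while their titles and descriptions and the design text call them naive or non activated, and that second reading was used here.

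IRF proteins are transcription factors that share an amino-terminal DNA-binding domain and bind the GAAA repeats of interferon-stimulated response elements. Irf3 and Irf7 carry signals from nucleic acid sensors to the interferon genes, Irf9 is the DNA-binding part of the complex that type I interferon activates, and Irf1 and Irf2 act on many of the same elements, Irf2 often as a repressor. In lymphocytes Irf4 is induced by antigen receptor signals and binds DNA with Batf and Jun proteins, while Irf8, its closest relative, is best known from myeloid and B cells. The comparison sets members of the receptor-induced kind against members of the interferon-induced kind.

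Each sample gave 1 array, and the deposited value is 1 intensity per probe set on a linear scale. The arrays were alike in overall level, with a trimmed mean near 100 on each. Some signs of RNA quality moved with the groups. The ratio of 5′ to 3′ control probe sets was 0.843, 0.774 and 0.800 for actin in the activated samples, against 0.707 and 0.563 in the naive ones. For Gapdh it was 1.351, 1.404 and 1.461 in the activated samples, against 1.348 and 1.272 in the naive ones. Both ratios were higher on every activated array, though for Gapdh activated replicate 1 and naive replicate 1 were nearly equal. The 18S ribosomal RNA 5′ control had 5999, 917 and 1117 in the activated samples, against 244 and 3366 in the naive ones, with overlapping groups. The part of RNA quality in the changes of the members was not tested. The 10 measured genes of a T cell list, which includes Cd3d, Cd3e, Cd3g and Cd4, all lay above the filter intensity on all 5 arrays. The filter intensity, the 40th percentile of an array, ran from 10.5 to 13.4. Activated replicate 1 stood apart in genes of other cells. The summed intensity of 12 dendritic cell markers was 4570 on that array, 374 and 688 on activated replicates 2 and 3, and 367 and 239 on the naive arrays. The sum of 13 macrophage markers was 6098 on activated replicate 1, 215 and 2000 on activated replicates 2 and 3, and 648 and 366 on the naive arrays. In pooled RNA, a change in the number of cells that hold a transcript and a change in its amount per cell cannot be told apart.

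Irf4 and Irf8 rose in activated cells, and Irf7 and Irf1 fell. Irf9, Irf3, Irf2 and Irf5 did not pass the test, limma's moderated test on log2(intensity + 16) with Benjamini-Hochberg adjustment over 12873 genes at an adjusted p under 0.05. Of the 8 members, all of which passed the filter on low values, 2 were higher and 2 lower. Among all tested genes 10.5% were called, 6.36% as higher and 4.14% as lower. In each of the 8 genes the 3 activated arrays lay on 1 side of both naive arrays, above them in 2 genes and below them in 6, against 40.9% of all tested genes whose groups did not overlap. The median log2 fold change was -0.24 over the members and -0.03 over all tested genes. The number of arrays, 3 and 2, limits precision.

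**Figure D1:**
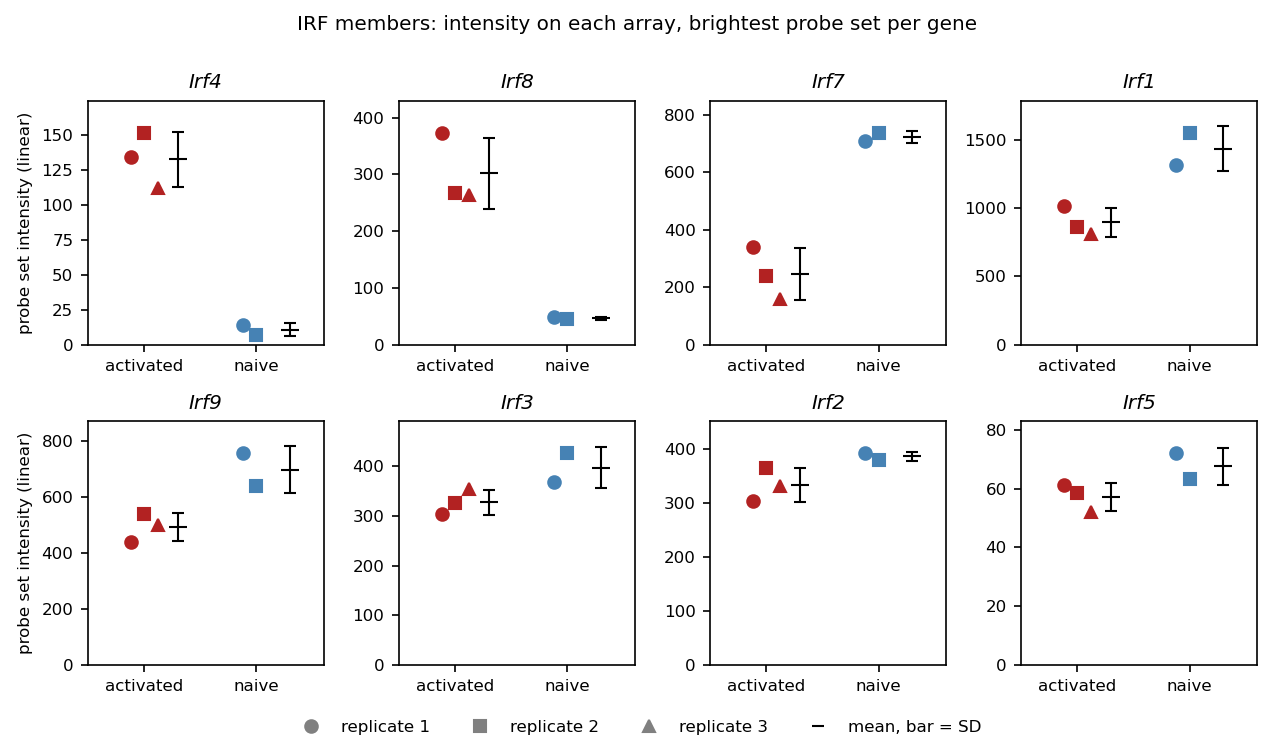
Linear intensity of the 8 members on each array, with 1 probe set per gene (that with the highest mean), activated samples left and naive samples right. Symbols mark replicate numbers, and the black bars give the mean and SD of each group; Irf4 and Irf8 lie higher in activated samples, and the other 6 lie lower.

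To show the sequence next to the start sites of the 4 members that changed, the windows from 250 bases before to 50 bases after a start site are given from RefSeq (build GRCm38.p6), all on the strand of the gene, 5′ to 3′. They lie at chr13:30748983-30749282 on the plus strand for Irf4, chr8:120736108-120736407 on the plus strand for Irf8, chr7:141266375-141266674 on the minus strand for Irf7 and chr11:53769764-53770063 on the plus strand for Irf1. Capitals mark matches to any of 4 motifs searched on both strands: the interferon-stimulated response element core GAAANNGAA, the gamma-activated site TTCNNNGAA that STAT proteins bind, the AP-1 site TGANTCA and the NF-kB consensus.
Irf4: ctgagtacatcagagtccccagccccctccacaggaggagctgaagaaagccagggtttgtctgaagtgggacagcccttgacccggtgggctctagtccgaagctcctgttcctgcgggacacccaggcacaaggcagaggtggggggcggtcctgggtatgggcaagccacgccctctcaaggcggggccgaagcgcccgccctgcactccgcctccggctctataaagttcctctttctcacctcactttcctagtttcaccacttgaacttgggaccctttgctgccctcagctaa
Irf8: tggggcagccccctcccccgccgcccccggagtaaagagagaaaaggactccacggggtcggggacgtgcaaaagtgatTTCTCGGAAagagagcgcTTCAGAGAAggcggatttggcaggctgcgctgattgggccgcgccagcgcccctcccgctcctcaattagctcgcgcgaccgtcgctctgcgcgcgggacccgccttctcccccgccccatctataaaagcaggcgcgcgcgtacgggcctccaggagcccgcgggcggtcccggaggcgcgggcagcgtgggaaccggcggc
Irf7: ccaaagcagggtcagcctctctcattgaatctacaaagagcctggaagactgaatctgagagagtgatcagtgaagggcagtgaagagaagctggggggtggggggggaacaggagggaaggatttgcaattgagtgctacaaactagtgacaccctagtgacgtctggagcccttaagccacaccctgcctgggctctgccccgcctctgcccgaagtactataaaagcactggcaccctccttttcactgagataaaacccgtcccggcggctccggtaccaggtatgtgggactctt
Irf1: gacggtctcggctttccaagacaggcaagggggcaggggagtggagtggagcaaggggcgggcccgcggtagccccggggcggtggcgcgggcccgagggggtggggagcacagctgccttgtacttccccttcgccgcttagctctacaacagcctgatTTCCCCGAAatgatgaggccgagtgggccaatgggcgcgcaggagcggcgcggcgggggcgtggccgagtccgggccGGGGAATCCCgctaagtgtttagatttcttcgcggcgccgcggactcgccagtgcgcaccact

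The window shown for Irf8, which rose, holds 2 gamma-activated sites, TTCTCGGAA and TTCAGAGAA, whose first bases lie 171 and 153 bases before the start. The window shown for Irf1, which fell, holds 1 gamma-activated site, TTCCCCGAA, from 90 bases before the start, and 1 match to the NF-kB consensus, GGGGAATCCC, from 13 bases before it. Irf8 and Irf1 each have another window, not shown, which holds 0 matches to the 4 motifs. The windows of Irf4 and Irf7 hold no match to the 4 motifs, which says only that these letters are not in these 300 bases. Of 11 windows that the 8 members have in the table, 3 hold a gamma-activated site (Irf1, Irf2 and Irf8), 1 the response element core (GAAAATGAA in Irf2, from 241 bases before the start), 2 the NF-kB consensus (Irf1 and Irf2) and 0 the AP-1 site. No 2 different motifs overlapped in them. Among all 32851 windows the shares with a match were 8.3% for the gamma-activated site, 8.56% for the response element core, 4.51% for the NF-kB consensus and 7.81% for the AP-1 site.

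Irf4, which drives effector differentiation of T cells after antigen receptor signals, had intensities of 133.9, 151.3 and 111.9 in the activated samples, against 13.8 and 7.2 in the naive ones, with the probe set 1421173_at. Every activated array was far above both naive arrays, which were near the filter intensity: naive replicate 1 lay just above it, at 13.8 against 13.4, and naive replicate 2 below it, at 7.2 against 10.8. Irf4 rose by 2.49 ± 0.22 on the log2 scale (SE, adjusted p = 6.5e-05, limma), and 56 of the other tested genes had a larger rise. Without activated replicate 1 the value was 2.48. With naive values this low, the pseudocount sets part of the size: the log2 fold change was 3.59 with a pseudocount of 1 and 1.39 with 64, and Irf4 was called in both. The second probe set of Irf4, 1421174_at, was dim throughout, at 27.4, 34.2 and 21.0 in the activated samples, against 14.5 and 9.6 in the naive ones. Its groups did not overlap either, but with a log2 fold change of 0.63 (95% interval 0.07 to 1.19) it did not pass over all probe sets (adjusted p = 0.17, limma). Averaging both probe sets gave 1.56, which was called.

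Plasma cells also make Irf4, and the injected tumor is a plasma cell line. Of 11 plasma cell markers measured, the surface marker Sdc1 had intensities of 7.8, 4.8 and 1.5 in the activated samples, against 21.2 and 21.1 in the naive ones. The joining chain gene Jchain had 11.6, 15.3 and 31.0 in the activated samples, against 14.5 and 10.6 in the naive ones, and the receptor Tnfrsf17 stayed below the filter intensity on all 5. The immunoglobulin gene Igha had 8.7, 25.3 and 27.5 in the activated samples, against 19.8 and 26.6 in the naive ones. For Iglv1, which was not tested, the values were 8.6, 0.5 and 40.7, against 3.4 and 6.7. Jchain, Igha and Iglv1 were each highest on activated replicate 3. None of the 11 was at 0 on every array, and the part of such cells in the rise of Irf4 was not tested. The summed intensity ran from 1552 to 1771 on the activated arrays and from 1299 to 1466 on the naive arrays. Most of it came from Xbp1, a factor of secretory cells, at 1062 to 1200 on the activated and 1116 to 1264 on the naive arrays. Those Xbp1 groups overlapped, while Pou2af1 had 303.0, 380.4 and 423.9 in the activated samples, against 74.2 and 80.2 in the naive ones. Among all tested genes 6.36% were called higher. Of 8 tested, 2 rose: the B cell coactivator Pou2af1 by 2.03 and the endoplasmic reticulum protein Derl3 by 1.16 on the log2 scale (1 of them without naive replicate 1). Derl3, with 4.7 and 10.5 in the naive samples, was below the filter intensity on both naive arrays and passed the filter through the activated arrays alone, so its size depends on the pseudocount.

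Irf8 had intensities of 373.5, 267.3 and 264.4 in the activated samples, against 48.3 and 44.7 in the naive ones with its brighter probe set, 1416714_at. The activated arrays were all well above the naive arrays, and the naive arrays differed little from each other. The log2 fold change was 2.33 ± 0.20 (SE, adjusted p = 4.9e-05, limma), with 81 other tested genes rising more. The order of Irf8 and Irf4 depends on the processing: Irf8 lay at 2.65 and Irf4 at 3.59 with a pseudocount of 1, and Irf8 at 2.05 and Irf4 at 1.56 with averaged probe sets. The other probe set, 1448452_at, which the annotation ties to the same sequence record, had 427.0, 160.4 and 113.6 in the activated samples, against 65.5 and 33.4 in the naive ones. Its groups did not overlap, and it rose by 1.77 ± 0.44 on the log2 scale (SE, adjusted p = 0.038 over all probe sets, limma).

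Dendritic cells and macrophages express Irf8, and both probe sets were highest on activated replicate 1, the array with the highest sums of their markers. The part of these cells in the rise of Irf8, and in its spread among activated arrays, was not tested. Without that array the probe set 1416714_at lay at 2.17 on the log2 scale (adjusted p = 0.00014 over genes, limma), and 1448452_at lay at 1.25 and did not pass (adjusted p = 0.052 over all probe sets, limma). The call of 1448452_at was also lost without activated replicate 2 and without naive replicate 2, at 1.92 and 1.41. On activated replicate 2 the macrophage sum, 215, was the lowest of all 5 arrays and the dendritic cell sum, 374, was near the 367 of naive replicate 1. Of 12 dendritic cell markers 10, 8 and 8 lay above the filter intensity in the activated samples, against 8 and 8 in the naive ones. None was at 0 on every array. The filter intensity is the 40th percentile of each array, which most probe sets exceed, so lying above it does not show presence. For macrophages the numbers above the filter were 12, 7 and 11 of 13 in the activated samples, against 10 and 9 in the naive ones. Of 9 tested dendritic cell and 12 tested macrophage markers 0 passed in limma's test with all arrays, where 3 and 1 had an unadjusted p under 0.05. Without activated replicate 2, 1 dendritic cell and 5 macrophage markers were higher, and without activated replicate 3, 1 dendritic cell marker was. B cell markers were dim, with a sum over 10 genes of 142 to 203 in the activated samples, against 103 to 114 in the naive ones, and of 5 tested only Cd22, an inhibitory receptor of B cells, rose, by 1.21 on the log2 scale, and it did not pass without naive replicate 2. The signalling chain gene Cd79a had 2.0, 12.6 and 14.7 in the activated samples, against 10.9 and 12.6 in the naive ones.

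**Figure D2:**
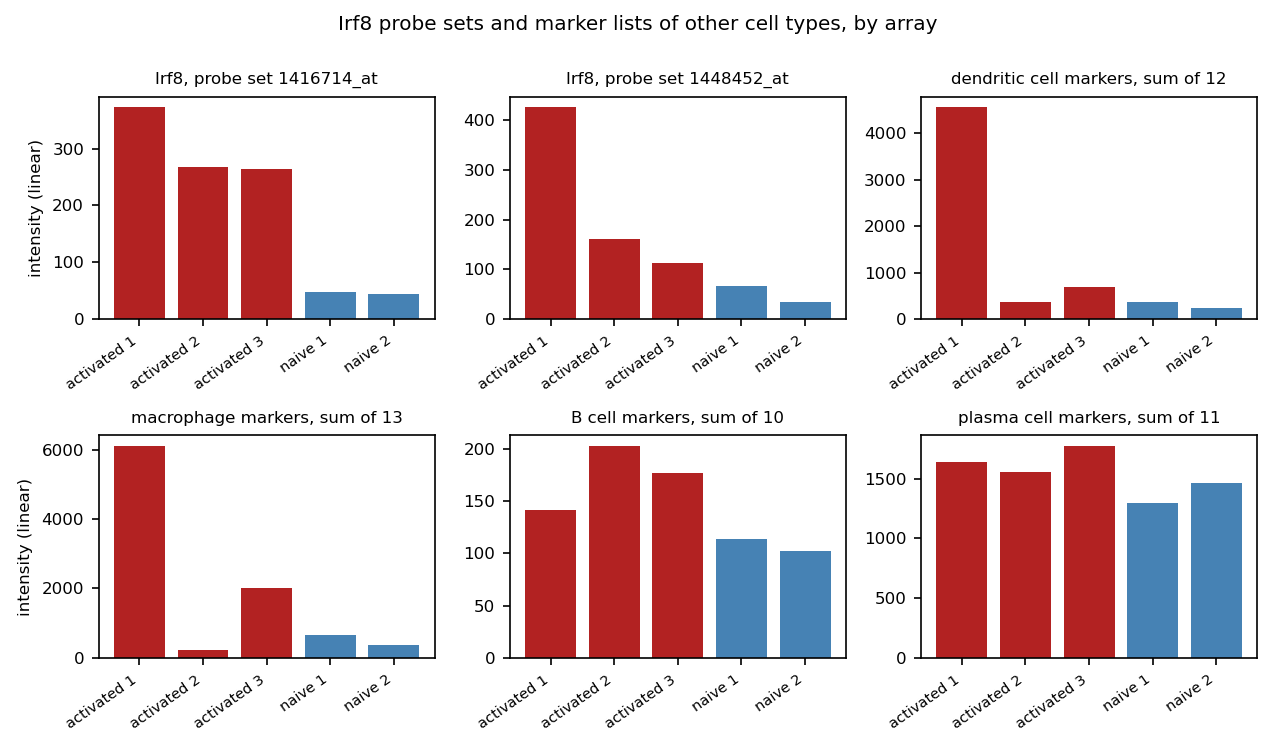
Linear intensity of the 2 Irf8 probe sets and summed linear intensity of 4 marker lists, 1 bar per array, activated in red and naive in blue. Activated replicate 1 carries dendritic cell and macrophage sums of 4570 and 6098. The Irf8 probe set 1416714_at is at 264.4 or more on all 3 activated arrays. The part of these cells in its rise was not tested.

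Irf7, the factor through which interferon amplifies its own production, had intensities of 338.6, 237.9 and 159.0 in the activated samples, against 708.4 and 737.6 in the naive ones. All activated arrays were below both naive arrays by a wide gap, and they spread more than the naive arrays did. The log2 fold change was -1.56 ± 0.25 (SE, adjusted p = 0.0032, limma), and 64 of the other tested genes fell more. Activated replicate 1 had the highest Irf7 of the activated arrays as well, and without it the log2 fold change was -1.81 (adjusted p = 0.00078, limma). Irf7 was measured by 1 probe set, 1417244_a_at, whose suffix marks transcripts of the same gene.

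Irf1, an interferon-induced regulator of antigen presentation genes, had intensities of 1016, 859.6 and 808.4 in the activated samples, against 1317 and 1550 in the naive ones. It was bright in both states with its 1 probe set, 1448436_a_at, and the highest activated array was below the lower naive array. The log2 fold change was -0.67 ± 0.17 (SE, adjusted p = 0.029, limma). This call was lost without activated replicate 2 or 3 or without naive replicate 1 or 2, where the log2 fold changes were -0.65, -0.60, -0.79 and -0.56, and also with median centring, with no filter and without the intensity trend. Activated replicate 1 had the highest Irf1 of the activated arrays, and without it the call held, at -0.77 (adjusted p = 0.027, limma).

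Irf9, which works with Stat2 in the type I interferon response, had intensities of 437.7, 538.6 and 499.7 in the activated samples, against 755.6 and 637.6 in the naive ones. The groups did not overlap with its 1 probe set, 1421322_a_at, but the log2 change, -0.49 ± 0.17 (SE, adjusted p = 0.096, limma), did not pass, with a 95% interval from -0.86 to -0.12. Irf3, made in most cells and activated by phosphorylation, had 303.9, 326.1 and 353.6 in the activated samples, against 367.7 and 426.8 in the naive ones with its brightest probe set (log2 fold change -0.26, 95% interval -0.62 to 0.09). That probe set, 1426111_x_at, carries a suffix for probes that may share sequence with other transcripts. The 3 other probe sets of Irf3 lay at -0.40, 0.07 and 0.32, and 2 of those 3 had overlapping groups, so the probe sets of Irf3 did not share a direction. Irf2, which competes with Irf1 for the same elements, had 302.4, 364.7 and 331.4 in the activated samples, against 392 and 379.8 in the naive ones. Its log2 fold change was -0.21, with a 95% interval from -0.56 to 0.15. Its 1 probe set, 1418265_s_at, carries a suffix for sequence shared with other transcripts.

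Irf5, a factor of myeloid inflammatory responses, had 61.2, 58.5 and 52.0 in the activated samples, against 72.1 and 63.2 in the naive ones with its brighter probe set (log2 fold change -0.19, 95% interval -0.62 to 0.24). Its other probe set had 59.8, 24.6 and 32.2 in the activated samples, against 10.8 and 31.3 in the naive ones, with overlapping groups and a log2 fold change of 0.57 that did not pass (95% interval -0.17 to 1.32). Averaging both turned the direction, to 0.19. The highest value of that second probe set was on activated replicate 1, and without that array it lay at 0.31. The average was not computed without it.

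At the level of probe sets, 3 of the 14 were higher and 2 lower, against 7.74% of 29240 tested probe sets called. In 11 of the 14 the groups did not overlap, 4 above and 7 below, against 39.1% of all tested probe sets. The 9 that did not pass were the second probe set of Irf4, both of Irf5, all 4 of Irf3 and those of Irf2 and Irf9.

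**Figure D3:**
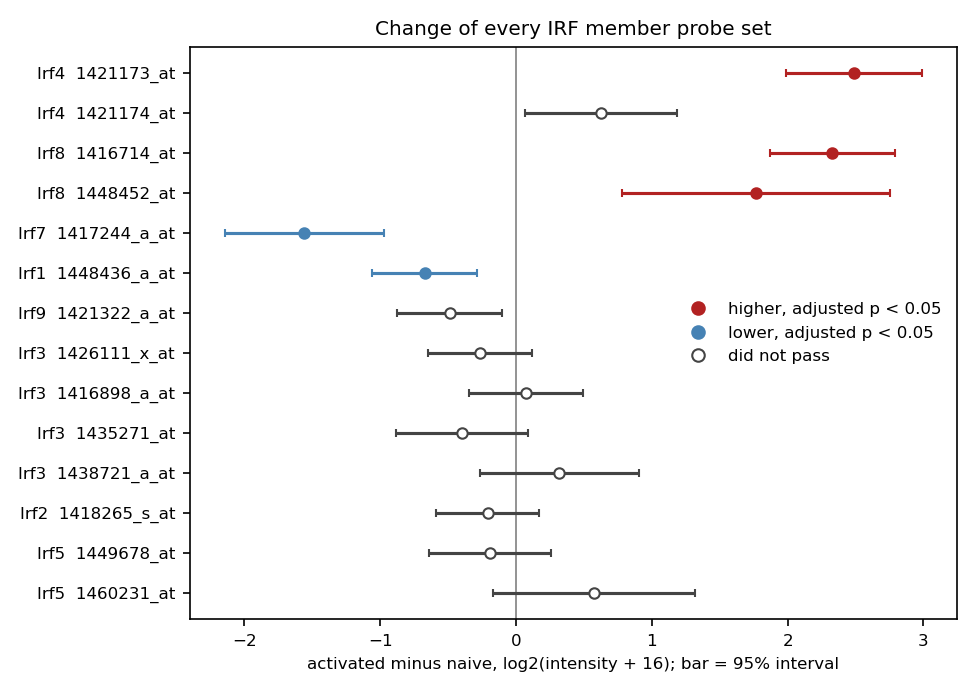
Difference of activated minus naive samples in log2(intensity + 16) for each of the 14 probe sets, with 95% intervals from limma's moderated standard errors. Filled points passed at an adjusted p under 0.05 over all probe sets; the probe sets of Irf4 and Irf8 lie on the right, and those of Irf7, Irf1, Irf9 and Irf2 on the left.

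The opposite course of Irf4 and Irf7 was taken as 1 value per array, log2(intensity + 16) of Irf4 minus that of Irf7. This value for Irf4 minus Irf7 was -1.24, -0.60 and -0.45 in the activated samples, against -4.60 and -5.02 in the naive ones. The groups were far apart, and the change of Irf4 exceeded that of Irf7 by 4.05 on the log2 scale. In an exact permutation test over the 10 ways to place 3 activated labels on 5 arrays the two-sided p was 0.1, the smallest this design allows, so 0.05 cannot be reached. The pair was chosen for its opposite course and each gene separates the groups, so this p was fixed by the choice and adds no support. The difference ran from 2.78 with a pseudocount of 64 to 5.21 with 1.

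The arrays also fell apart by the hybridisation control bioC, which was bright on activated replicates 1 and 2 and naive replicate 1 and dim on activated replicate 3 and naive replicate 2. The labels name no batch. Within the bright arrays the log2 differences of activated minus naive were 2.41 for Irf4, 2.37 for Irf8, -1.27 for Irf7, -0.49 for Irf1 and -0.62 for Irf9. Within the dim pair they were 2.46 for Irf4, 2.21 for Irf8, -2.11 for Irf7, -0.93 for Irf1 and -0.34 for Irf9. Since the groups of all 8 members do not overlap, their directions within each side were fixed and only the sizes carry information. With this grouping as a block Irf9 passed, at -0.50 (adjusted p = 0.041, limma).

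The genes most like each changed member over the 5 arrays, by the root mean square difference of mean-centred log2 profiles, were Cks1b, Lrr1 and Tpx2 for Irf4, at 0.093 to 0.13. For Irf8 they were Ntn1, E2f8 and Swap70, at 0.11 to 0.16. For Irf7 they were Emp3, Rnf213 and Dapk1, at 0.157 to 0.162. For Irf1 they were Ppm1l, Ube2cbp and Nedd4l, at 0.013 to 0.052, and 2788 other genes lay within 0.3 of Irf1, against 53 for Irf4, 38 for Irf8 and 29 for Irf7.

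Around the members, most of the partners that IRF proteins bind DNA with did not pass. Of 16 tested partners 2 rose and 1 fell (2 with quantile normalization), where 6.36% of all tested genes were called higher and 4.14% lower. The median change was 0.01 on the log2 scale, against -0.03 over all genes. Batf, the AP-1 protein that recruits Irf4, had intensities of 873.8, 914.9 and 757.6 in the activated samples, against 262.7 and 174.0 in the naive ones, which is a rise of 1.91 ± 0.19 on the log2 scale (SE, adjusted p = 0.00016, limma). The repressor Bcl6 rose by 1.85. Jun, a partner of Batf, fell by 2.19, with 37.8, 25.5 and 42.0 in the activated samples, against 143.3 and 320.1 in the naive ones. The other Jun genes of the list, Junb and Jund, were brighter and did not pass, at 0.01 and -0.53 (adjusted p = 0.98 and 0.064, limma). The Ets family partners of Irf4 and Irf8 in B and myeloid cells, Spi1 and Spib, did not pass, at -0.29 and 0.28 (adjusted p = 0.68 and 0.63, limma), nor did Batf3, at 0.01, or the calcium-dependent factor Nfatc1, at -0.01. Stat2, the partner of Irf9, had 121.9, 120.5 and 118.6 in the activated samples, against 245.4 and 163.9 in the naive ones and did not pass, at -0.67 (adjusted p = 0.058, limma). The cofactors Irf2bp1, Irf2bp2 and Irf2bpl lay at -0.32, 0.57 and 0.08, and 0 passed in limma's test, with 1 at an unadjusted p under 0.05 (Irf2bp2, adjusted p = 0.18).

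Genes induced by the antigen receptor and genes described as depending on Irf4 in T cells were mostly higher. Of 15 tested receptor-induced genes 11 rose and 0 fell, with a median of 1.85. Among all tested genes 6.36% were called higher and 4.14% lower, with a median of -0.03. The list was drawn up as receptor-induced genes that rise with Irf4, so its rises were partly chosen and add no support. The costimulator Tnfrsf9 rose by 4.51, the nuclear receptor Nr4a1 by 3.91 and the NF-kB subunit Rel by 1.10. Cd69 and Myc of the same list did not pass, at -0.22 and -0.07 (adjusted p = 0.44 and 0.86, limma). Tnfrsf9, with 11.7 and 4.5 in the naive samples, was below the filter intensity on both naive arrays and passed the filter through the activated arrays alone, so its size depends on the pseudocount. Of 18 tested genes described as Irf4-dependent, 12 rose and 2 fell, with a median of 1.47. The inhibitory receptor Ctla4, at 4.67, and the zinc finger factor Ikzf2, at 3.82, were among those that rose, Ctla4 with 4.6 on naive replicate 1, below the filter intensity, and the fallers were Prdm1, the repressor Blimp-1 that Irf4 induces in plasma cells, at -1.11, and Foxo1, a factor of naive T cells, at -0.72. Without activated replicate 2 or naive replicate 2 neither of those falls passed, and without naive replicate 1 only 1 did. Batf and Nfatc1 stand among both the partners and the receptor-induced genes, and Bcl6 among both the partners and the Irf4-dependent genes.

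Genes with interferon-stimulated response elements were mostly lower, where 6.36% of all tested genes were called higher and 4.14% lower. Of 31 tested, 0 rose and 24 fell (20 without activated replicate 1), and their median was -0.996, against -0.03 over all genes, led by the RNA synthetase Oas2 at -2.83 and the RNA-binding Ifit1 at -2.62. Of 22 tested genes described as Irf1-dependent, 1 rose and 7 fell, with a median of -0.47. The GTPases Gbp7 and Iigp1, at -1.76 and -1.69, fell most, and the cell cycle inhibitor Cdkn1a rose by 1.55, with 81.3, 40.1 and 34.6 in the activated samples, against 6.3 and 6.3, below the filter intensity, in the naive ones. That rise did not pass without naive replicate 2. The proteasome and peptide transport genes Psmb8, Psmb9 and Tap1 of that list did not pass, at 0.00, -0.01 and -0.45.

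**Figure D4:**
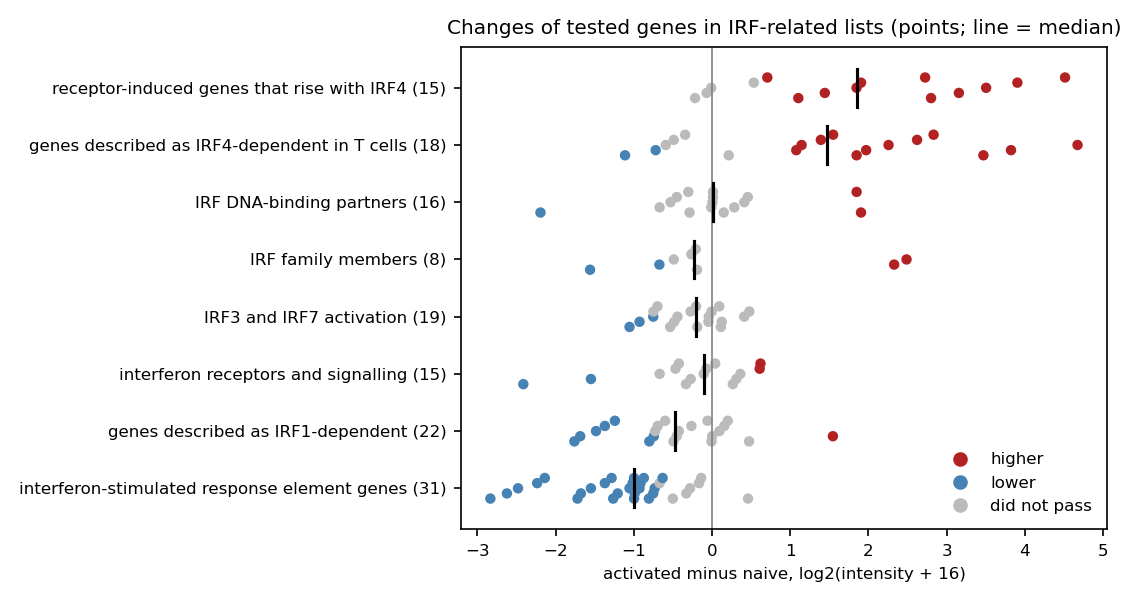
Difference of activated minus naive samples in log2(intensity + 16) for each tested gene of 8 lists, number of tested genes in brackets, with the list median as a black line. Receptor-induced genes have a median of 1.85 and response element genes one of -0.996; red and blue points passed at an adjusted p under 0.05.

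Among all tested genes 6.36% were called higher and 4.14% lower. Upstream of the members, of 19 tested components that switch on Irf3 and Irf7 0 rose and 3 fell, with a median of -0.20. The fallers were the RNA sensors Dhx58, at -1.05, Ddx58, at -0.93, and Ifih1, at -0.75, which also stand among the response element genes. This count was 1 without naive replicate 2 and 5 without activated replicate 3. The kinase Tbk1, which phosphorylates Irf3, lay at -0.75 and did not pass (adjusted p = 0.061, limma). Of 15 tested interferon receptors and signalling genes 2 rose and 2 fell: the kinase Jak2 by 0.62 and the phosphatase Ptpn6 by 0.61 were higher, and the feedback inhibitors Socs3, at -2.41, and Usp18, at -1.55, were lower. Usp18 and Stat2 of this list also stand among the response element genes, and Stat2 among the partners too. The count of 2 higher was 1 without activated replicate 1 or 3 and 0 without activated replicate 2 or either naive replicate. The receptor chains Ifnar1, Ifnar2, Ifngr1 and Ifngr2 did not pass, at 0.04, 0.36, -0.11 and -0.47, with 95% intervals from -0.31 to 0.39, -0.05 to 0.78, -0.50 to 0.29 and -0.92 to -0.01. Of 10 interferon genes measured, 7, all of the alpha kind or Ifnab, did not pass the filter, and Ifnb1 lay at 0.02 with intensities of 32.9, 9.4 and 7.4 in the activated samples, against 17.4 and 11.5 in the naive ones, highest on activated replicate 1. Ifng, a cytokine that induces Irf1, rose by 2.37 ± 0.39 on the log2 scale (SE, adjusted p = 0.0031, limma), with 123.4, 315.8 and 97.4 in the activated samples, against 22.5 and 13.3 in the naive ones.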

How the data were processed

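Per the labels' protocols, RNA from a Trizol extraction (6 µg) was biotinylated for Affymetrix arrays. The authors deposited a linear intensity for every probe set on each array. How probe sets were summarised and scaled is not stated in the sources used here. Every array has nearly the same total level (2% trimmed mean near 100), so changes are relative to that level.

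Gene names are those of the platform annotation. Of 45101 probe sets, 34945 had 1 gene symbol. For each gene the probe set with the highest mean log2(intensity + 16) was used. Genes above the 40th percentile of an array on 2 or more arrays were tested, 12873 in all. The same fit was run on 29240 probe sets. The test was limma 3.58.1 in R 4.3.3 (lmFit on group alone, eBayes with an intensity trend), two-sided, with Benjamini-Hochberg adjustment over all genes or probe sets. In 5 sets of made-up arrays with 200 of 12873 genes changed between the groups, it recovered 64.2% of changes of 1 and 98.4% of changes of 2 on the log2 scale, and 7.51% of its calls were false. The made-up noise was independent for each gene and array, without shared array effects. Fewer genes were changed than the 10.5% called in the data, so these rates need not hold there.

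The members, gene lists and naming rule were chosen with earlier results of these data known, and lists received no test. Named were all members and probe sets, the IRF2-binding proteins, the 2 largest rises and falls among called genes of each list, a fixed panel of partners, receptors and interferons, and the 3 genes nearest in profile to each called member. Markers, Tbk1, Tap1, the proteasome genes, Junb, Jund, Cd69 and Myc were picked with their values in view. The samples are labelled biological replicates from independent experiments on pooled mice. Replicate numbers are shared by the groups without a stated link. Alternatives were normalization, filter, pseudocount, choice of probe sets, array weights, variance model, a block for the replicate number, leaving out each array and, added after seeing the data, the bioC grouping as a block. Lists of other cell types were read as summed intensities. Neutrophil sums were 990, 75.9 and 129 in the activated samples, against 128 and 106 in the naive ones. NK cell sums were 4617, 1135 and 1176 in the activated samples, against 1629 and 1400 in the naive ones. Plasmacytoid dendritic cell sums were 322, 190 and 187 in the activated samples, against 220.5 and 165 in the naive ones.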

Additional observations from a re-analysis of the deposited data

How the results depend on the processing

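The calls of Irf4, Irf8 and Irf7 were the same in every alternative that gave a value (18, 18 and 17). The call of Irf1 held in 10 of 17, with adjusted p from 0.011 to 0.21. Irf2 and Irf3 passed in none, Irf5 in none with its direction turned to 0.19 by averaged probe sets, and Irf9 in 1 of 17. The count of members lower, 2, was 1 with median centring, with no filter and without the trend, and from 1 to 2 when 1 array was left out. It was 0 on probe sets without a suffix, where Irf1, Irf2, Irf7 and Irf9 have none. Genes higher numbered 819, and 461 to 721 with 1 array left out (461 without naive replicate 2). Genes lower numbered 533, 349 with no filter, 859 with the bioC block, and 188 to 521 with 1 array left out (188 without naive replicate 2, 294 without activated replicate 2, 345 without naive replicate 1). Probe sets higher and lower were 870 and 510 with no filter, and 758 to 1310 and 352 to 669 with 1 array left out. Probe sets lower were 1486 with the bioC block. Irf4-dependent genes lower were 1 with no filter and with averaged probe sets, and 0 to 2 with 1 array left out. Irf1-dependent genes higher were 0 to 1 with 1 array left out, and those lower were 11 with the bioC block. Response element genes higher were 1 (Ifi27l2a, named after its values were seen) with quantile normalization, with the bioC block and with the replicate block. With the replicate number as a block 974 genes were higher and 796 lower, Irf1 lay at -0.60 and no member changed its call among genes. Activated replicate 3 has no naive sample of its number, so this block takes it out of the group difference. The log2 fold changes of the members equal those without activated replicate 3, and only their errors differ, though both settings are counted above. The probe set of Irf1 missed the threshold there (adjusted p = 0.07, limma). Deviations from the group means correlated at 0.17 for the samples numbered 1 and at -0.13 for those numbered 2. With 2 naive arrays their deviations mirror each other, so this cannot decide whether the numbers pair the samples. No pairing was assumed, as none is stated. The cause of these shifts was not tested. The naive intensities of Irf4 near the filter limit the precision of its size.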
